A study of Homo sapiens with 6 samples.

Results

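RNA-seq read counts of 8 protein kinase genes were examined in A375 cells, an established human melanoma line with an activating BRAF mutation. The genes are CLK1, CLK2, CLK3 and CLK4 (the CDC-like kinases), SRPK1 and SRPK2 (the SR protein kinases), and DYRK1A and DYRK1B, which belong to the same CMGC group of kinases. They were chosen by name from the 28395 gene IDs counted, with earlier results of these data known. All 8 were among the 16381 genes with enough reads to be tested. Cells were kept for 72 h in 1 µM palbociclib, an inhibitor of the cell cycle kinases CDK4 and CDK6, in 500 nM GSK3326595, which inhibits PRMT5, an enzyme that methylates arginines, or in 0.01% DMSO as the vehicle control. All 3 groups were A375 cells in supplemented RPMI medium, and each holds 2 libraries. The labels number the libraries of a group but do not say that they came from separate cultures, so the spread behind each p-value may be technical.

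Removal of introns depends on SR proteins, RNA-binding proteins whose serine and arginine repeats are phosphorylated and dephosphorylated in cycles. SRPK kinases act mainly in the cytoplasm and phosphorylate SR proteins for import into the nucleus, where CLK kinases phosphorylate them further and release them from nuclear speckles. DYRK1A and DYRK1B also phosphorylate cell cycle proteins: both act on D-type cyclins, and DYRK1A phosphorylates LIN52, a step in the assembly of the DREAM repressor complex of resting cells. PRMT5 methylates Sm proteins of the spliceosome, so the inhibitor touches the same process at another point.

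DYRK1B, CLK2 and CLK4 carry the palindrome CACGTG, an E box, in the only RefSeq promoter window given for them, which runs from 250 bases before to 50 bases after the transcription start (assembly GRCh38.p14). These windows are shown because palbociclib moved the genes differently: DYRK1B was called higher, CLK2 was called lower and CLK4 was not called. Capitals mark the E box, and each sequence is read 5′ to 3′ on the gene's strand, which is the minus strand in all 3 cases.
DYRK1B, chr19:39834113-39834412: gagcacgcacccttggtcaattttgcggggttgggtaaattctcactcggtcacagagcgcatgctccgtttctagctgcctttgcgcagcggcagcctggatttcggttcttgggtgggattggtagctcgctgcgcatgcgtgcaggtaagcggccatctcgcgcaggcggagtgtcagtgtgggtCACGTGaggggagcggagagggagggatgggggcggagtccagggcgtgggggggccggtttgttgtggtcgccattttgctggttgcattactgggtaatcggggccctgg
CLK2, chr1:155273455-155273754: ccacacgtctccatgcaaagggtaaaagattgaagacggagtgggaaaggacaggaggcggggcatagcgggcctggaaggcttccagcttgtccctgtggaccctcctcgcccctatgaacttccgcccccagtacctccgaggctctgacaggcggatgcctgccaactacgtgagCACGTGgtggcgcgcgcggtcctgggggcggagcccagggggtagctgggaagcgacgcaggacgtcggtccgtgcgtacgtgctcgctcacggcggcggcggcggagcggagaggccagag
CLK4, chr5:178627001-178627300: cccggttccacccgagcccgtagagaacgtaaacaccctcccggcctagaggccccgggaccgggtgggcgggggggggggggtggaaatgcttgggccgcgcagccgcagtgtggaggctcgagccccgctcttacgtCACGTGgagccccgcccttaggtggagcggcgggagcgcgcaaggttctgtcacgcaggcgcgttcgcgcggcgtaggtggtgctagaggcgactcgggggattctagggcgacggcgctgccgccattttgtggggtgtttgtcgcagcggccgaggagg
The first base of the E box lay 62 bases before the start in DYRK1B, 72 before in CLK2 and 111 before in CLK4. In CLK4 it overlapped a match to TGACGT, a core part of the cAMP response element, that lies on the opposite strand and whose leftmost base in the printed sequence is 115 bases before the start. Altogether 18 windows were listed for the 8 genes, and 4 of them held CACGTG, the fourth being 1 of the DYRK1A windows. Among all 35116 promoter windows of the same length, 7.26% held it. The E2F words TTTCGCGC, TTTGGCGC and TTTCCCGC, searched on both strands like all words here, were found in 0 of the 18 windows, and in 0.515%, 0.652% and 1.63% of all windows. The GC box GGGCGG was found in 11 of the 18 windows and in 45% of all windows. The cell cycle element word TTTGAA was in 4 of 18 windows, against 15.2% of all. These are matches of letters in fixed windows and were not tested as binding sites.

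Levels are given as CPM, read counts relative to library size, after scaling of library sizes by the TMM method. Together the 8 genes held 406 and 405 CPM in the palbociclib libraries, 429 and 438 CPM in the GSK3326595 libraries, and 444 and 456 CPM in the DMSO libraries. To compare genes with each other, CPM were divided by the length of the merged exons. On that scale SRPK1 had 29.7 CPM per kb and CLK2 27.7 CPM per kb in DMSO cells, followed by SRPK2 at 20.9, CLK3 at 15.2, CLK1 at 7.79, DYRK1B at 6.51 and CLK4 at 4.60 CPM per kb. In palbociclib cells the order was SRPK1 at 23.2, SRPK2 at 19.9, CLK3 at 19.7, CLK2 at 18.6, DYRK1B at 13.3, CLK1 at 6.29 and CLK4 at 4.93 CPM per kb. The ranges of SRPK1 and CLK2 touched in DMSO cells (28.6 and 30.9 CPM per kb against 28.7 and 26.7), and those of SRPK2, CLK3 and CLK2 lay close together in palbociclib cells (19.9 and 19.9, 20.5 and 19.0, and 19.4 and 17.8 CPM per kb). This order depends on the length used. Over the shortest RefSeq mRNA of each gene, DYRK1A stood highest, at 43.4 CPM per kb in DMSO cells and 34.0 CPM per kb in palbociclib cells. Next in DMSO cells were SRPK2 at 32.8, CLK2 at 31.1, SRPK1 at 29.9, CLK3 at 22.7 and CLK1 at 15.6 CPM per kb. Next in palbociclib cells were SRPK2 at 31.2, CLK3 at 29.4, SRPK1 at 23.3 and CLK2 at 20.9 CPM per kb. The range was widest for DYRK1A, whose DMSO level was 3.73 CPM per kb over merged exons and 43.4 CPM per kb over its shortest RefSeq mRNA of 1590 bases. Gene counts add up all transcripts of a gene: GENCODE v29 lists 8 retained-intron transcripts among 15 for CLK1, 7 among 15 for CLK4 and 8 among 27 for CLK3, and these cannot be separated from the coding ones here.

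**Figure D1:**
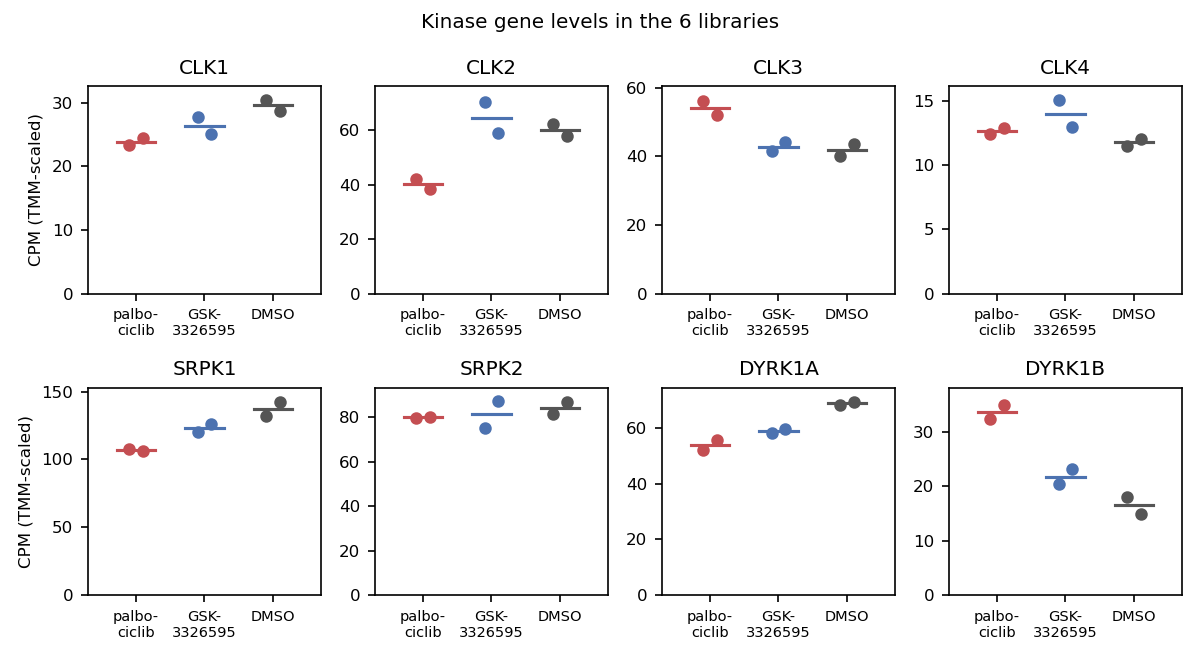
Level of each of the 8 kinase genes in CPM (vertical axis, from 0, own scale per gene) in the 6 libraries, with palbociclib, GSK3326595 and DMSO from left to right, points for libraries and bars for group means. DYRK1B stood at 32.5 and 35.1 CPM in palbociclib libraries against 18.1 and 14.9 CPM in DMSO libraries, while CLK2 stood at 42.1 and 38.6 CPM against 62.2 and 57.9 CPM.

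After 72 h of palbociclib, 6 of the 8 kinase genes differed from DMSO cells, and they did not move together. DYRK1B, which is known for its high activity in quiescent cells, about doubled, and CLK3 rose, while CLK2, SRPK1, DYRK1A and CLK1 fell. Only DYRK1B and CLK2 stayed called under all 14 alternative fits given below. CLK4 and SRPK2 did not pass the test. The threshold was an adjusted p of 0.05 (edgeR quasi-likelihood F test, two-sided, Benjamini-Hochberg over all genes tested). It was passed by 39.5% of all tested genes, with 19.3% higher and 20.2% lower, against 2 higher and 4 lower of the 8 kinase genes. The palbociclib and DMSO libraries did not overlap for any of the 8 genes, with 3 higher and 5 lower, and this also held for 72.5% of all tested genes, 35.1% higher and 37.4% lower. The median log2 fold change was -0.19 over the 8 kinase genes and -0.02 over all tested genes. Neither the count nor the absence of overlap was tested against the other genes.

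Among the CLK genes, CLK2 had 42.1 and 38.6 CPM in palbociclib libraries and 62.2 and 57.9 CPM in DMSO libraries. Its log2 fold change was -0.57 ± 0.106 (SE; edgeR adjusted p = 0.00118), with a 95% interval of -0.81 to -0.34. CLK3 had 56.3 and 52.2 CPM in palbociclib libraries against 40.2 and 43.7 CPM in DMSO libraries. CLK2 and CLK3 thus moved in opposite directions, and both treated libraries lay outside the range of the controls for each. The log2 fold change of CLK3 was 0.37 ± 0.0970 (SE; edgeR adjusted p = 0.00973). CLK1 had 23.3 and 24.4 CPM in palbociclib libraries and 30.4 and 28.7 CPM in DMSO libraries, a difference of -0.31 ± 0.106 on the log2 scale (SE; edgeR adjusted p = 0.0363). CLK4, the paralog most like CLK1, had 12.4 and 12.9 CPM against 11.5 and 12.1 CPM, and its log2 fold change of 0.10 had a 95% interval of -0.20 to 0.40 (edgeR adjusted p = 0.592). The summed level of the 4 CLK genes was 131 ± 4.33 CPM in palbociclib cells and 143 ± 1.32 CPM in DMSO cells (SD, n = 2 each). Leaving out a library, which also lowers the number of samples, ended the calls of CLK1 and CLK3 in some fits, while their log2 fold changes ran from -0.34 to -0.27 for CLK1 and from 0.31 to 0.45 for CLK3. The edgeR adjusted p of CLK1 was 0.187 and 0.110 when palbociclib replicate 1 or 2 was left out, and 0.152 and 0.0884 when DMSO replicate 1 or 2 was, within a range of 0.00602 to 0.187 over 14 alternatives. For CLK3 it was 0.0974 without palbociclib replicate 1 and 0.0875 without DMSO replicate 1, within a range of 0.000144 to 0.0974.

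Of the SRPK genes, SRPK1 had 107.8 and 106.4 CPM in palbociclib libraries and 132.0 and 142.6 CPM in DMSO libraries. Both treated libraries lay below both controls, and the log2 fold change was -0.36 ± 0.0812 (SE; edgeR adjusted p = 0.00426). SRPK2 had 79.8 and 80.0 CPM against 81.3 and 86.9 CPM, and the 95% interval of its log2 fold change of -0.07 ran from -0.27 to 0.13 (edgeR adjusted p = 0.555). The SRPK1 call was lost without palbociclib replicate 2 (edgeR adjusted p = 0.0540) and without DMSO replicate 2 (0.0690), within a range of 1.17e-05 to 0.0690. Over all GENCODE v29 transcripts, SRPK2 shares 98 exonic bases with KMT2E and 136 with AC004884.2, both on the other strand. The level of AC004884.2 was not analysed here. The SRPK2 transcripts paired with RefSeq records share no stretch of 50 bases with KMT2E. The level of KMT2E was 53.8 and 60.0 CPM in palbociclib libraries and 83.9 and 86.4 CPM in DMSO libraries. Whether counting used strand is not given in the sources used here, and the part of KMT2E reads in the SRPK2 counts was not tested.

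The DYRK1 genes moved in opposite directions under palbociclib. DYRK1B had 32.5 and 35.1 CPM in treated libraries against 18.1 and 14.9 CPM in DMSO libraries, a 2.05-fold higher level. Its log2 fold change of 1.03 ± 0.125 (SE) had a 95% interval of 0.76 to 1.31 (edgeR adjusted p = 5.13e-05). Among all tested genes, 10.5% had a larger absolute log2 fold change in this comparison. DYRK1A had 52.1 and 55.9 CPM in treated libraries and 68.4 and 69.6 CPM in DMSO libraries, a log2 difference of -0.35 ± 0.0863 (SE; edgeR adjusted p = 0.00649). The summed level of the pair was 87.8 ± 4.47 CPM in palbociclib cells and 85.5 ± 1.47 CPM in DMSO cells (SD, n = 2 each), a difference smaller than the SD of the treated libraries. The DYRK1A call was lost without palbociclib replicate 1 (edgeR adjusted p = 0.0932) and without DMSO replicate 2 (0.0621), within a range of 5.95e-05 to 0.0932, whereas DYRK1B and CLK2 were called under all 14 alternatives.

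**Figure D2:**
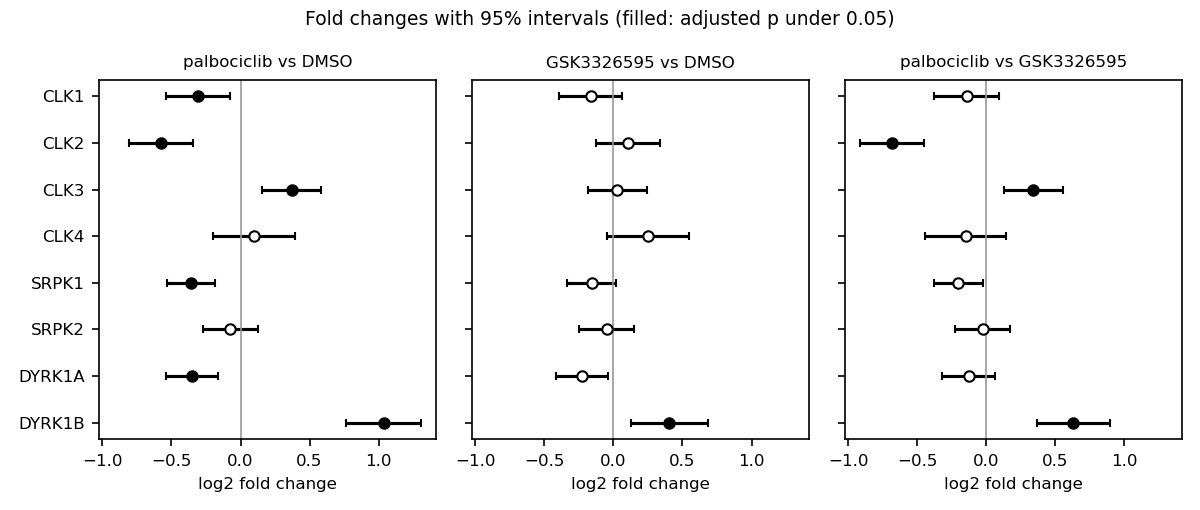
Log2 fold change (horizontal axis) of each kinase gene in palbociclib against DMSO, GSK3326595 against DMSO and palbociclib against GSK3326595 cells, with 95% intervals as bars and filled points for an edgeR adjusted p under 0.05. Under palbociclib 6 genes were called, from -0.57 for CLK2 to 1.03 for DYRK1B, and under GSK3326595 only DYRK1B was called, at 0.40.

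Of the 8 kinase genes, GSK3326595 gave a call for DYRK1B, which rose. The other 7 were not called, where 18.8% of all tested genes were called, 8.58% higher and 10.2% lower. DYRK1B had 20.4 and 23.2 CPM in GSK3326595 libraries and 18.1 and 14.9 CPM in DMSO libraries, a log2 difference of 0.40 ± 0.128 (SE; edgeR adjusted p = 0.0462). Both treated libraries lay above both controls, but the margin was small, and the call was lost without GSK3326595 replicate 2 (log2 fold change 0.31, edgeR adjusted p = 0.205), DMSO replicate 2 (0.27, 0.279) or either of the palbociclib libraries (0.0675 and 0.0700), within a range of 0.00331 to 0.279. The palbociclib libraries enter this contrast through the shared estimate of the spread, the scaling and the gene filter. DYRK1A had 58.3 and 59.7 CPM against 68.4 and 69.6 CPM in DMSO libraries, a log2 fold change of -0.23 with a 95% interval of -0.41 to -0.04 and an edgeR adjusted p of 0.0900, so it was not called in this fit, which has no replicate block.

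The splicing kinases proper, CLK and SRPK, gave 0 calls of 6 in GSK3326595 against DMSO cells by edgeR, which called 18.8% of all tested genes. DESeq2 and limma-voom also gave 0 of 6, and 0 had an unadjusted edgeR p under 0.05. The 2 of 8 genes with an unadjusted edgeR p under 0.05 were the DYRK1 genes, which this count leaves out. With 6 genes, a count of 0 lies near the share of all tested genes, and these counts were not tested against the other genes. SRPK1 had 120.2 and 126.2 CPM against 132.0 and 142.6 CPM in DMSO libraries (log2 fold change -0.16, 95% interval -0.33 to 0.02, edgeR adjusted p = 0.204). CLK4 had 15.1 and 13.0 CPM against 11.5 and 12.1 CPM, and CLK1 had 27.7 and 25.0 CPM against 30.4 and 28.7 CPM. The intervals of both included 0, at -0.05 to 0.55 for CLK4 (log2 fold change 0.25, edgeR adjusted p = 0.231) and -0.40 to 0.07 for CLK1 (log2 fold change -0.17, edgeR adjusted p = 0.307). For CLK2 (70.3 and 58.9 CPM against 62.2 and 57.9), CLK3 (41.5 and 44.1 against 40.2 and 43.7) and SRPK2 (75.1 and 87.5 against 81.3 and 86.9) the GSK3326595 and DMSO libraries overlapped. Their log2 fold changes were 0.11, 0.03 and -0.05, and the sign turned in CLK2, CLK3 and SRPK2 when single libraries were left out. In all, 5 of 8 genes did not overlap between these groups, 2 higher and 3 lower, against 57.3% of tested genes with 27.6% higher and 29.7% lower, and 2 of 8 had an unadjusted p under 0.05. The median log2 fold change of the 8 was -0.01, and that of all tested genes -0.00. The 2 inhibitor comparisons share their DMSO libraries.

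Set directly against each other, the inhibitors left different levels of 3 of the 8 genes, where 34.8% of all tested genes were called. The 3 were 2 higher and 1 lower, against 16.6% and 18.2% of all tested genes. CLK2 was lower under palbociclib, at 42.1 and 38.6 CPM against 70.3 and 58.9 CPM in GSK3326595 libraries (log2 fold change -0.68 ± 0.106, SE; edgeR adjusted p = 0.000512). CLK3 was higher, at 56.3 and 52.2 CPM against 41.5 and 44.1 CPM (0.34 ± 0.0973, SE; edgeR adjusted p = 0.0172). DYRK1B was also higher, at 32.5 and 35.1 CPM against 20.4 and 23.2 CPM (0.63 ± 0.122, SE; edgeR adjusted p = 0.00202). The order of DYRK1B levels was therefore DMSO, GSK3326595 and palbociclib from low to high, with libraries of neighbouring groups not overlapping. The log2 fold changes of the other 5 genes had 95% intervals of -0.38 to -0.02 for SRPK1, -0.32 to 0.06 for DYRK1A, -0.38 to 0.09 for CLK1, -0.44 to 0.15 for CLK4 and -0.23 to 0.18 for SRPK2. These intervals do not show that the inhibitors act alike on them. SRPK1, DYRK1A and CLK1 had the reverse order of DYRK1B, with palbociclib lowest and DMSO highest, but only the palbociclib and DMSO ends were called different. Of the 8 genes, 7 did not overlap between the inhibitors, 2 higher and 5 lower, against 67.4% of tested genes with 31.8% higher and 35.7% lower. The CLK3 call was lost without palbociclib replicate 1 (edgeR adjusted p = 0.150) and without GSK3326595 replicate 1 (0.0669), within a range of 0.000488 to 0.150.

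Ratios between close paralogs within a library do not depend on the scaling of library sizes. The CLK3 to CLK2 ratio was 1.34 and 1.35 in palbociclib libraries, 0.590 and 0.748 in GSK3326595 libraries, and 0.646 and 0.755 in DMSO libraries. Reads of CLK3 thus outnumbered those of CLK2 in palbociclib libraries, while the order was the other way round in the other 4 libraries. The DYRK1B to DYRK1A ratio was 0.624 and 0.628 in palbociclib libraries, 0.350 and 0.389 in GSK3326595 libraries, and 0.265 and 0.214 in DMSO libraries, with no overlap between any of the groups. The CLK4 to CLK1 ratio was 0.534 and 0.528 in palbociclib libraries and 0.545 and 0.520 in GSK3326595 libraries, against 0.380 and 0.421 in DMSO libraries. Both inhibitors left this ratio above the controls, although neither inhibitor gave a call for CLK4 itself. The SRPK1 to SRPK2 ratio was 1.35 and 1.33 in palbociclib libraries, 1.6 and 1.44 in GSK3326595 libraries, and 1.62 and 1.64 in DMSO libraries. With 2 libraries per group the smallest p of a two-sided exact permutation test is 0.333, so these ratios are a description.

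**Figure D3:**
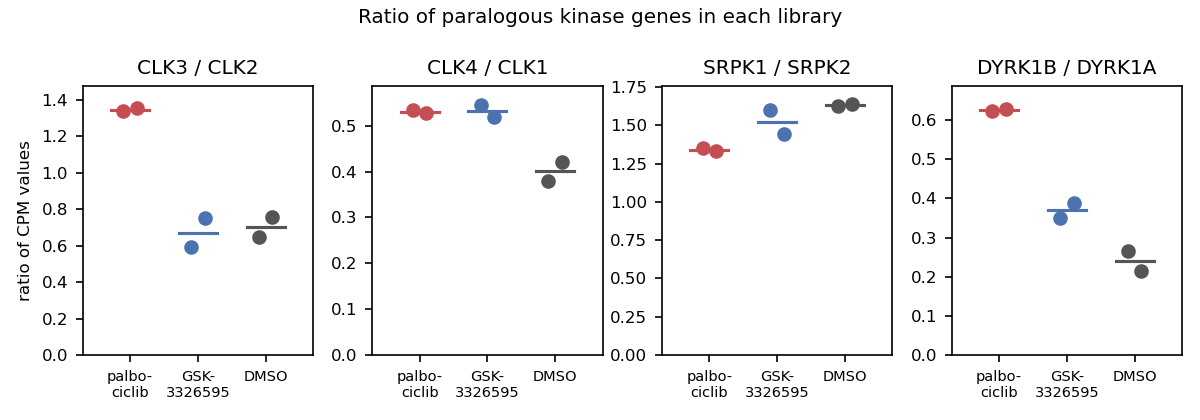
Ratio of CPM values (vertical axis, from 0, own scale per pair) for 4 pairs of related kinase genes in each library, with palbociclib, GSK3326595 and DMSO from left to right and bars for group means. The CLK3 to CLK2 ratio was 1.34 and 1.35 under palbociclib and between 0.590 and 0.755 in the other 4 libraries.

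Reads of several of these genes may not be fully separated from those of neighbours or copies, as the annotation used for counting is not given. Overlaps are given over all GENCODE v29 transcripts of each gene. On that basis CLK3 shares 701 exonic bases with EDC3 on the opposite strand. EDC3 had between 77.7 and 89.1 CPM in the 6 libraries, with 86.2 and 86.1 CPM under palbociclib against 85.3 and 77.7 CPM in DMSO libraries. On the opposite strand CLK3 also shares 479 exonic bases with AC100835.2 and 180 with AC100835.1. CLK3-AS1, a RefSeq symbol that was not matched to either of them here, had 1.51 to 3.46 CPM. CLK4 shares 161 exonic bases with RN7SKP70 on the same strand, and DYRK1A shares 360 with AP001437.1 on the opposite strand, and the levels of both were not analysed here. SRPK1 shares 265 exonic bases with LHFPL5, which had between 0 and 3 reads per library. Of the 50-base stretches of the RefSeq-paired CLK3 transcripts, looked up on both strands, 7.07% also occur in transcripts of other genes. The parts were 4.85% in AC100835.1, which overlaps CLK3 on the opposite strand, and 2.22% in AL158077.1, with none in EDC3. The share was 5.96% for CLK2, all in the pseudogene CLK2P1, which had 1 to 3 reads per library. For SRPK1 it was 4.78%, all in its opposite-strand neighbour LHFPL5, for SRPK2 1.89% and for DYRK1A 0.499%. The RefSeq-paired transcripts of CLK1, CLK4 and DYRK1B had 0 such stretches in common with transcripts of another gene.

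Most genes of SR proteins, the substrates of these kinases, fell under palbociclib. Of 14 listed, 13 were tested, and edgeR called 9 lower and 0 higher against DMSO, with 4 not called. The number higher was also 0 at an unadjusted p under 0.05, by DESeq2 and by limma-voom. Among all tested genes 20.2% were called lower, but this list and the related lists below were chosen with earlier results of these data known. The median log2 fold change was -0.67 over the 13 genes, against -0.02 over all tested genes. TRA2B, a splicing activator, had 104 ± 0.311 CPM in palbociclib cells against 190 ± 10.4 CPM in DMSO cells (log2 fold change -0.88 ± 0.0831, SE). SRSF10, a regulator whose activity depends on its phosphorylation, had 80.4 ± 4.15 CPM against 142 ± 1.10 CPM. SRSF4 had 43.4 ± 2.24 CPM against 73.2 ± 4.42 CPM (SD, n = 2 each). Under GSK3326595 the count was 1 higher and 2 lower of 13, where 8.58% and 10.2% of all tested genes were called. SRSF8 rose to 55.1 ± 6.28 CPM, against 38.2 ± 1.14 CPM in DMSO cells, and SRSF6 (249 ± 27.5 against 312 ± 0.313 CPM) and SRSF10 (119 ± 1.24 against 142 ± 1.10 CPM) fell. Those falls are marginal: the SRSF10 call was lost when any of the 6 libraries was left out (edgeR adjusted p between 0.0941 and 0.145), and the SRSF6 call when any was left out except GSK3326595 replicate 1 (0.0646 to 0.196), within ranges of 0.00228 to 0.145 and 0.000134 to 0.196. Palbociclib against GSK3326595 gave 9 lower, where 18.2% of all tested genes were, and 0 higher, also at an unadjusted p under 0.05, by DESeq2 or by limma-voom, led by SRSF4, TRA2B and SRSF2 at log2 fold changes of -0.77, -0.68 and -0.67.

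A further list held genes for the opposing enzymes, the phosphatases of SR proteins, and for TNPO3, the carrier that imports phosphorylated SR proteins. It also held PPP1R8 and PPP1R10, regulatory subunits of protein phosphatase 1, so its counts are not of phosphatase enzymes alone. The genes called in this list were also lower under palbociclib. Of 8 genes tested, edgeR called 4 lower and 0 higher, against 20.2% and 19.3% of all tested genes. The number higher was also 0 at an unadjusted p under 0.05, by DESeq2 and by limma-voom, all without a replicate block. PPP1CC, a catalytic subunit of protein phosphatase 1, had 179 ± 4.84 CPM in palbociclib cells against 271 ± 31.5 CPM in DMSO cells (log2 fold change -0.60 ± 0.0951, SE). PPP2CA, the catalytic subunit of protein phosphatase 2A, had 128 ± 1.08 CPM against 177 ± 21.6 CPM (SD, n = 2 each). TNPO3 had a log2 fold change of -0.23 (edgeR adjusted p = 0.0422), and the call was lost when any library except GSK3326595 replicate 2 was left out (0.0520 to 0.316), within a range of 0.00271 to 0.316. Under GSK3326595 0 of the 8 were called by edgeR, DESeq2 or limma-voom without a replicate block, where 18.8% of all tested genes were called by edgeR, and 0 had an unadjusted edgeR p under 0.05. Between the inhibitors 3 were lower under palbociclib, against 18.2% of all tested genes, with log2 fold changes of -0.50 for PPP1CC, -0.40 for PPP2CA and -0.26 for PPP1R8. The PPP2CA call was lost without palbociclib replicate 2 (edgeR adjusted p = 0.0559, range 3.21e-06 to 0.0559) and the PPP1R8 call when any of the 6 libraries was left out (0.0824 to 0.294, range 0.00343 to 0.294).

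Among other kinases of splicing and transcription, PRPF4B and CDK9 were called in opposite directions under the 2 inhibitors. PRPF4B, a kinase needed for assembly of the spliceosome, had 63.0 ± 3.87 CPM in palbociclib cells, 124 ± 7.86 CPM in GSK3326595 cells and 82.5 ± 5.19 CPM in DMSO cells (SD, n = 2 each). It fell under palbociclib (log2 fold change -0.39 ± 0.0902, SE; edgeR adjusted p = 0.00490) and rose under GSK3326595 (0.59 ± 0.0891, SE; edgeR adjusted p = 0.000900). CDK9, the kinase that releases paused RNA polymerase II, had 101 ± 1.6 CPM in palbociclib cells, 59.1 ± 2.37 CPM in GSK3326595 cells and 79.5 ± 0.883 CPM in DMSO cells. Its log2 fold change was 0.34 ± 0.0799 under palbociclib and -0.43 ± 0.0816 under GSK3326595 (SE; edgeR adjusted p = 0.00499 and 0.00389). Directly compared, palbociclib against GSK3326595 gave -0.98 ± 0.0900 for PRPF4B and 0.77 ± 0.0812 for CDK9 (SE; edgeR adjusted p = 1.82e-05 and 4.18e-05). The palbociclib calls were lost for PRPF4B without palbociclib replicate 1 (edgeR adjusted p = 0.0782) or DMSO replicate 2 (0.0752), and for CDK9 without palbociclib replicate 1 (0.0564), within ranges of 5.68e-06 to 0.0782 and 3.45e-05 to 0.0564. CDK11B, a further splicing-linked kinase whose counts are uncertain because CDK11A is a near-identical copy, had 32.3 ± 2.95 CPM in GSK3326595 cells against 25.5 ± 0.0239 CPM in DMSO cells (edgeR adjusted p = 0.0434), and its call was lost when any library except GSK3326595 replicate 1 was left out (0.0680 to 0.241, range 0.00365 to 0.241). Its log2 fold change for palbociclib against GSK3326595 was -0.34, a call lost without palbociclib replicate 1 (edgeR adjusted p = 0.173), palbociclib replicate 2 (0.0858) or GSK3326595 replicate 2 (0.179), within a range of 0.00245 to 0.179. In the list of 8, the calls were 1 higher and 1 lower under palbociclib, 2 higher and 1 lower under GSK3326595, and 1 higher and 2 lower between the inhibitors, where 39.5%, 18.8% and 34.8% of all tested genes were called in either direction. The share called under palbociclib was below that of all tested genes, but with 8 genes the difference is small and was not tested.

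Of the other DYRK and HIPK kinases, 6 of 7 were tested, and edgeR called 2 higher and 0 lower under palbociclib (1 lower at an unadjusted p under 0.05), against 19.3% and 20.2% of all tested genes. Under GSK3326595 it called 0 in either direction (3 at an unadjusted p under 0.05), against 18.8%, and between the inhibitors 1 higher, against 16.6%. DESeq2 and limma-voom, also without a replicate block, gave these counts of 0 too. DYRK3, which dissolves stress granules and other condensates, had 51.8 ± 2.11 CPM in palbociclib cells against 40.6 ± 1.67 CPM in DMSO cells. HIPK3 had 99.7 ± 4.38 CPM against 81.3 ± 1.03 CPM (SD, n = 2 each). These calls were lost for DYRK3 without palbociclib replicate 2 (edgeR adjusted p = 0.0990) or DMSO replicate 1 (0.0816), and for HIPK3 without palbociclib replicate 1 (0.132) or either DMSO library (0.0595 and 0.0649). Their ranges were 0.000220 to 0.0990 and 0.000303 to 0.132. HIPK2 had a log2 fold change of 0.35 for palbociclib against GSK3326595, a call lost without palbociclib replicate 1 (edgeR adjusted p = 0.0678), palbociclib replicate 2 (0.0765) or GSK3326595 replicate 1 (0.0616), within a range of 3.23e-05 to 0.0765.

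Among 12 genes of DYRK1 partners and substrates, palbociclib gave 3 higher and 2 lower, a share near the 39.5% of all tested genes called. LIN52, the DREAM subunit that DYRK1A phosphorylates, had 5.12 ± 0.376 CPM in palbociclib cells against 9.92 ± 0.331 CPM in DMSO cells (log2 fold change -0.95 ± 0.167, SE; edgeR adjusted p = 0.000812). CDKN1B, the CDK inhibitor p27, had 38.8 ± 4.43 CPM against 55.0 ± 3.6 CPM (SD, n = 2 each), a call lost without palbociclib replicate 2 (edgeR adjusted p = 0.0528, range 2.04e-06 to 0.0528). CCND1, the gene of cyclin D1, whose protein DYRK1 kinases mark for turnover, had 844 ± 3.56 CPM against 489 ± 16.2 CPM (SD, n = 2 each). NFATC2, a transcription factor that DYRK1A sends out of the nucleus, had 17.9 ± 2.68 CPM against 9.29 ± 2.24 CPM. CCND2 was called higher by both inhibitors from 3 reads in each DMSO library, at 0.568 ± 0.0125 CPM in palbociclib cells, 2.27 ± 0.0833 CPM in GSK3326595 cells and 0.162 ± 0.00789 CPM in DMSO cells, so no fold is given. Its call under palbociclib was lost when any palbociclib or DMSO library was left out (edgeR adjusted p between 0.0823 and 0.105, range 0.0153 to 0.105).

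Under GSK3326595 the 12 partner genes gave 1 higher, which was CCND2, and 2 lower, against 8.58% and 10.2% of all tested genes. CDKN1B had 40.3 ± 1.14 CPM against 55.0 ± 3.6 CPM in DMSO cells, a call lost without DMSO replicate 2 (edgeR adjusted p = 0.0884, range 4.37e-05 to 0.0884). RCAN1, a calcineurin regulator that DYRK1A phosphorylates, had 38.8 ± 2.94 CPM against 49.2 ± 4.68 CPM (SD, n = 2 each), and its call was lost without GSK3326595 replicate 2 (edgeR adjusted p = 0.179), DMSO replicate 1 (0.227) or either of the palbociclib libraries (0.0693 and 0.0691), within a range of 0.000765 to 0.227. Palbociclib against GSK3326595 called 34.8% of all tested genes, and of the partner genes 4 higher, among them CCND1, NFATC2 and RCAN1 at log2 fold changes of 0.76, 0.91 and 0.55. It gave 3 lower: CCND2, LIN52 at -0.56 and NFATC3 at -0.29. The LIN52 call was lost without palbociclib replicate 1 (edgeR adjusted p = 0.0784), palbociclib replicate 2 (0.167) or GSK3326595 replicate 1 (0.0829), and the NFATC3 call when any library except GSK3326595 replicate 1 was left out (0.0729 to 0.323), within ranges of 0.00532 to 0.167 and 0.000677 to 0.323.

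**Figure D4:**
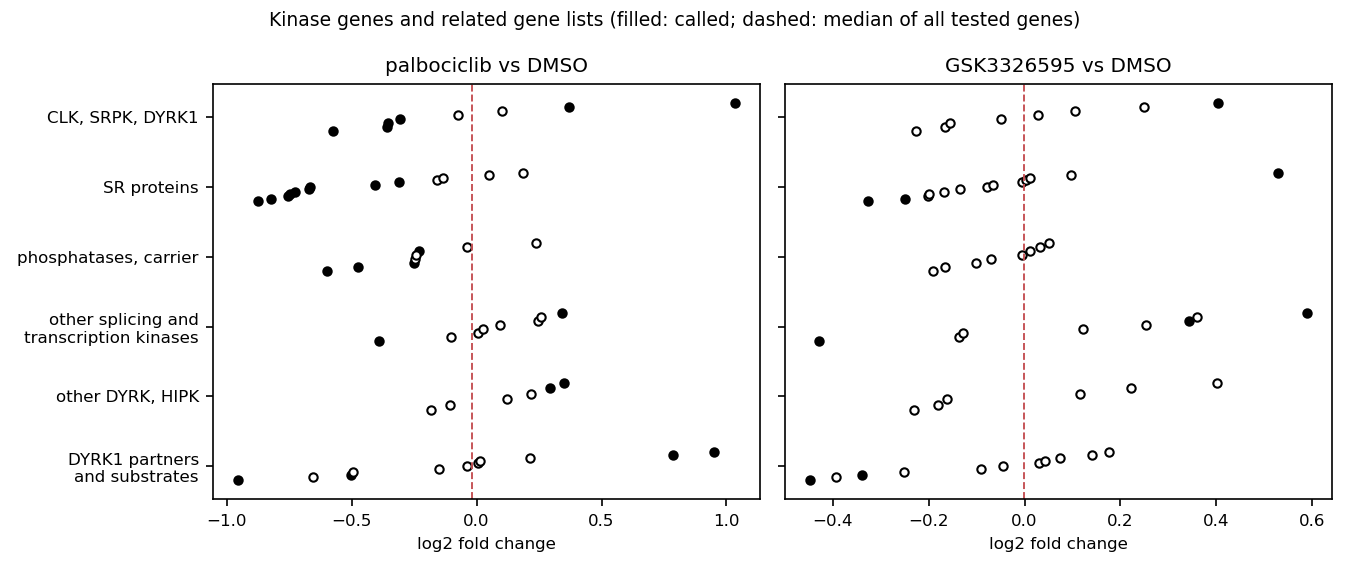
Log2 fold change against DMSO (horizontal axis, own scale per panel) of the 8 kinase genes and the tested genes of 5 related lists under palbociclib (left) and GSK3326595 (right), with 1 point per gene, filled where the edgeR adjusted p is under 0.05, and a dashed line at the median of all tested genes. CCND2 is left out because its DMSO libraries hold 3 reads each. SR protein genes reach -0.88 under palbociclib with 9 of 13 called lower.

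For each kinase gene the tested genes with the most similar profile were found, as the root-mean-square difference of centred log2 CPM over the 6 libraries among 11348 candidates with a mean of at least 5 CPM. CLK3 had the closest match, AP1S3 at 0.007, followed by DNAJC10, an endoplasmic reticulum reductase, at 0.020. SRPK1 had KAT6A, a histone acetyltransferase, among its 2 nearest at 0.021. DYRK1B was nearest to PLEKHM1, a regulator of lysosome fusion, at 0.062 and to MVP, the major vault protein, at 0.068. MVP had 303 CPM in palbociclib cells, 182 CPM in GSK3326595 cells and 145 CPM in DMSO cells. This is the order of DYRK1B, which follows from choosing MVP by its similar profile in the same libraries. CLK2 was nearest to CDIN1 (0.050) and EPB41L4B (0.056), CLK1 to ING5 (0.027) and PLEKHG2 (0.029), CLK4 to KBTBD8 (0.032) and FBXL2 (0.041), SRPK2 to ANXA7 (0.017) and NFKB1 (0.027), and DYRK1A to NAB1 (0.027) and ZNF273 (0.029). With 6 libraries in 3 groups many genes can have similar profiles, so these distances are a description.

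**Figure D5:**
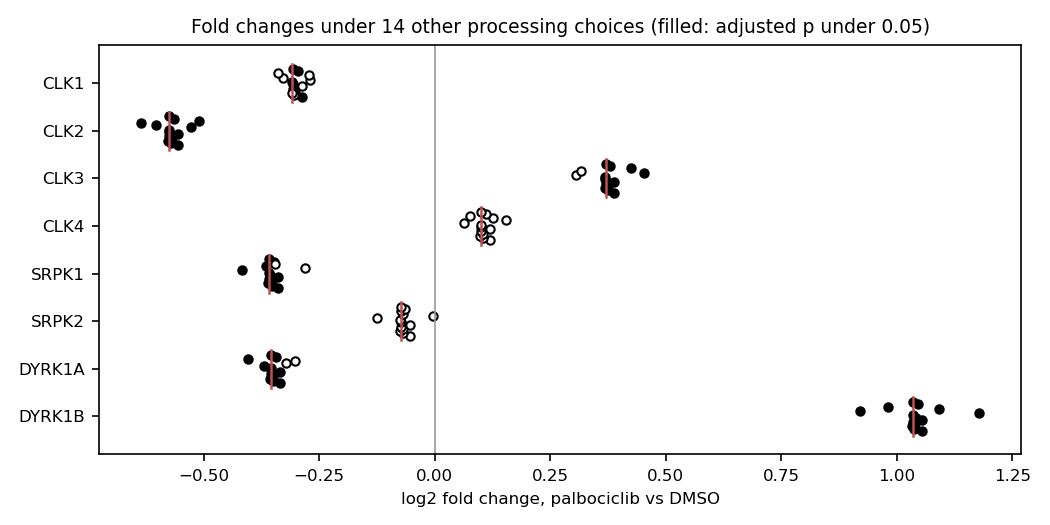
Log2 fold change of palbociclib against DMSO (horizontal axis) for each kinase gene under 14 other processing choices, including leaving out each library, with filled points for an adjusted p under 0.05 and a red line at the value reported. DYRK1B (0.92 to 1.18) and CLK2 (-0.64 to -0.51) stayed called under all 14, and CLK1 was called under 7 of them.

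Total counts ran from 16589153 to 20842099 per library, and replicates of each group differed by more than counting noise (chi-square per degree of freedom 5.12 for palbociclib, 9.90 for GSK3326595 and 7.76 for DMSO). The melanocyte markers SOX10 (122 to 237 CPM) and MITF (57.4 to 87.4 CPM) were present in every library, PMEL and MLANA were under 3 CPM, and TYR was at 0 in 5 of 6 libraries. S100B was the only melanocyte marker called under palbociclib against DMSO, where it was higher (log2 fold change 1.66, edgeR adjusted p = 3.15e-05). MITF was the only such marker called under GSK3326595 against DMSO, also higher (log2 fold change 0.49, edgeR adjusted p = 0.00324). The summed level of the 6 melanocyte markers was 284 to 311 CPM under palbociclib, 208 to 261 CPM under GSK3326595 and 229 to 258 CPM in DMSO libraries. Markers of other cell types also differed: the 6 fibroblast markers summed to 27.1 to 31.9 CPM under palbociclib, 52.4 to 57.5 CPM under GSK3326595 and 35.6 to 44.2 CPM in DMSO libraries, and the 6 blood cell markers to 80.3 to 88.0, 66.8 to 70.7 and 86.4 to 93.8 CPM. Those sums came mainly from COL1A1, PDGFRB and CD68, though in palbociclib cells LUM was above COL1A1 (6.31 CPM). COL1A1, PDGFRB and CD68 were each called lower under palbociclib than in DMSO cells. In contrast, LUM (7.04 CPM in palbociclib cells against 1.64 CPM in DMSO cells), LYZ (13.8 against 4.58 CPM) and the epithelial marker KRT14 (7.43 against 2.05 CPM) were called higher. Of the 4 epithelial markers tested, 1 was called higher and 1 lower under palbociclib, the latter being KRT8 (126 against 162 CPM). In GSK3326595 cells COL1A1 had 27.4 CPM, against 13.2 CPM in DMSO cells. PTPRC, CD3E and HBB stayed at or under 0.117 CPM and COL1A2, COL3A1 and DCN under 0.5 CPM. The 6 epithelial markers summed to 617 to 697, 623 to 782 and 684 to 757 CPM, mainly from KRT18 and KRT8, with CDH1 and EPCAM under 1 CPM. The part of these marker levels in the kinase results was not tested. In bulk RNA, fewer cells of a kind and less RNA per cell cannot be told apart.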

How the data were processed

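Total RNA was depleted of ribosomal RNA and made into TruSeq RNA v2 libraries, per the labels' protocols. Each of the 6 libraries has 1 deposited table, which the authors filled with unnormalized read counts indexed by NCBI Gene ID. Per the submitters' processing notes, build hg38 was used with HISAT2, featureCounts 1.6.2, limma, cutadapt 1.7 and CASAVA 1.8.2. How strand, annotation and multimapping reads were handled is not given in the sources used here.

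Symbols came from the RefSeq gene table (GRCh38.p14): 27745 of 28395 IDs matched, and 650 stayed in under their IDs. Exon lengths and overlaps came from GENCODE v29, and promoter sequences from RefSeq (GRCh38.p14), which held windows for all 8 genes. Counts were tested with edgeR 4.0.16 in R 4.3.3: filterByExpr (minimum count 10) left 16381 genes, TMM set the library scaling, and the quasi-likelihood fit took all 6 libraries with 1 term per group (3 residual degrees of freedom). The 3 contrasts were tested by a two-sided F test with Benjamini-Hochberg adjustment over all genes, called at 0.05. SE is the absolute log2 fold change over the square root of F. The script was tested on simulated data.

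The kinase genes and the related and marker lists were chosen with earlier results of these data known. From each related list, up to 3 called genes of smallest p per direction and comparison are named, as are the 2 nearest profiles of each kinase gene (prior count 2), except 1 of those of SRPK1, which is not reported here. Alternatives were RLE factors, library totals, no filter, a filter at a mean of 1 CPM, a replicate block, DESeq2 1.42.0, limma-voom (limma 3.58.1), the 4 compared libraries alone, and leaving out each library.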

Additional observations from a re-analysis of the deposited data

How the results depend on the processing

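Each kinase gene was refitted under 14 alternatives in each of 3 comparisons, 336 values in all. Of these, 304 kept direction and side of the threshold, 23 lost a call, 3 gained one and 6 turned sign. Among 40 named results of the related lists, 469 of 556 values kept their call, 87 lost it and 0 turned sign. The sign turned for genes that were not called. When single libraries were left out of GSK3326595 against DMSO, CLK2 ranged from -0.027 (without GSK3326595 replicate 1) to 0.227, CLK3 from -0.057 (without DMSO replicate 1, and -0.018 without GSK3326595 replicate 2) to 0.091, and SRPK2 from -0.164 to 0.057 (without GSK3326595 replicate 1, and 0.000706 without DMSO replicate 2). For palbociclib against GSK3326595, SRPK2 ranged from -0.120 to 0.091 (without GSK3326595 replicate 2). Besides the losses on leaving out a library, CLK1 under palbociclib lost its call with library totals (adjusted p = 0.0691), no filter (0.0507) and DESeq2 (0.122), and DYRK1B under GSK3326595 with library totals (0.0693), DESeq2 (0.0713), limma-voom (0.0548) and the 4 compared libraries alone (0.0785), which each gave 0 kinase genes higher there, against 1. With library totals, 2 kinase genes in place of 1 were lower under palbociclib than under GSK3326595, SRPK1 being added. Of the related lists, the count lower ran from 0 to 5 for SR protein genes under GSK3326595 (2 as reported), from 2 to 6 for phosphatase and carrier genes under palbociclib (4 as reported) and from 1 to 5 for DYRK1 partners between the inhibitors (3 as reported); other list counts moved by 2 or fewer genes. The causes were not tested.

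Leaving out 1 library at a time, the fits held fewer samples. Palbociclib against DMSO gave 4007 to 7259 genes called, with 1 to 2 kinase genes higher and 1 to 4 lower. GSK3326595 against DMSO gave 1765 to 3230 genes, with 0 to 1 kinase genes higher. Palbociclib against GSK3326595 gave 3312 to 5542 genes, with 1 to 2 kinase genes higher and 1 lower throughout. Where an arm kept 1 library, it was assumed to vary like the other groups.

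The labels do not say that replicate numbers mark a shared batch, and a comparison has only 2 numbers. Deviations of same-numbered libraries from their group means correlated across genes at 0.179 for palbociclib and DMSO, 0.341 for GSK3326595 and DMSO and 0.140 for palbociclib and GSK3326595. With a replicate block 5769 genes were called for GSK3326595 against DMSO, against 3081 without it, and 1 kinase gene was lower, DYRK1A (-0.23, adjusted p = 0.0133). With the block 2 kinase genes were lower for palbociclib against GSK3326595, SRPK1 (-0.20, adjusted p = 0.0108) being added. For GSK3326595 against DMSO the block gave 2 phosphatase and carrier genes lower, and 1 other DYRK or HIPK gene higher and 2 lower, against 0 each without it. For palbociclib against DMSO it gave 1 phosphatase or carrier gene higher and 1 other DYRK or HIPK gene lower, against 0 each. CLK4 had the fewest reads of the kinase genes, 207 to 268 per library.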
